A study of Mus musculus with 2 samples.

Results

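Far intergenic p300 peaks are the p300-bound regions whose midpoint fell outside the body of every annotated gene, coding or not, and whose distance to the closest protein-coding start site was more than 100 kb and at most 400 kb. The genes were those of GENCODE vM1 on the mm9 assembly, and each protein-coding gene was represented by the start of the transcript encoding its longest protein. By this rule 1273 of the 6629 p300 peaks were far intergenic peaks, or 19.2%. A further 1793 intergenic peaks lay nearer, at most 100 kb from such a start site, 545 lay in gene deserts beyond 400 kb, and 3018 had their midpoint inside a gene. The peaks came from chromatin immunoprecipitation with an antibody to p300, followed by sequencing, on the dorsal cerebral wall (neocortex) of Swiss Webster mouse embryos at E14.5, with the hem, hippocampus and choroid plexus cut away. There was 1 p300 library and 1 input library and no replicate, so no comparison between samples was possible, and every test below compares sets of regions or windows of DNA within a single list of peaks. The list gives positions only, with no read count or score, so the depth behind a single peak is unknown, and the tissue label could not be checked against marker genes. In pooled tissue a site bound in few cells and a site bound weakly in many cannot be told apart.

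p300 is a histone acetyltransferase that is recruited to chromatin by DNA-bound transcription factors, and its binding away from promoters is a widely used mark of active enhancers. Enhancers can act over long stretches of intergenic DNA and need not act on the closest gene, and genes for developmental regulators often lie beside wide gene-poor regions that hold many of them. In the embryonic neocortex, proneural bHLH factors of the Neurog and Neurod families bind E-boxes in differentiating excitatory neurons, LIM homeodomain factors such as Lhx2 act in progenitors, and nuclear factor I (Nfi) proteins act in radial glia and in maturing neurons.

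The sequences below are the middle of selected far peaks, shown because they carry the short words on which the results turn. Capitals mark matches to the proneural E-box CATCTG, the palindromic E-box CAGCTG, the homeodomain site TAATTA, the Nfi dimer TGGCNNNNNGCCA, the Sox site AACAAT, the octamer ATGCAAAT bound by POU factors, the Rbpj site GTGGGAA and the Tcf/Lef site CTTTGAT, on either strand. All are from mm9 and are read on the plus strand from 5′ to 3′. The elements elt1, elt6 and elt10, which the study cloned from far peaks for reporter assays, are shown as 200 bp and 5 of the far peaks with the most different motifs as 300 bp. In the study's transgenic embryos elt1 and elt6 drove expression in the developing neocortex, and elt10 is not among the elements shown as active.
elt1, peak 6525 (chr9:118237280-118237479, strand +): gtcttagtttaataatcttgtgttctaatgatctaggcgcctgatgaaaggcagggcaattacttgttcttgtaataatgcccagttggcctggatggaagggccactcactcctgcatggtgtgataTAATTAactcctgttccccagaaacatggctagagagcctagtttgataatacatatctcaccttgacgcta
elt6, peak 1608 (chr13:47509118-47509317, strand +): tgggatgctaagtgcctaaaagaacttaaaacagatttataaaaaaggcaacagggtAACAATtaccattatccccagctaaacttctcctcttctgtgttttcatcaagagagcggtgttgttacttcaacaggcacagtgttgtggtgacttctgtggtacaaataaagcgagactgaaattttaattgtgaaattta
elt10, peak 1437 (chr12:108454410-108454609, strand +): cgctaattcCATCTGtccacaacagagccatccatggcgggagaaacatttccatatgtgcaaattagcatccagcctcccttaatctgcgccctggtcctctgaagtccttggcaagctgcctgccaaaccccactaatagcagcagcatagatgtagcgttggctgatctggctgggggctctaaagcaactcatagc
peak 6234 (chr9:29875512-29875811, strand +): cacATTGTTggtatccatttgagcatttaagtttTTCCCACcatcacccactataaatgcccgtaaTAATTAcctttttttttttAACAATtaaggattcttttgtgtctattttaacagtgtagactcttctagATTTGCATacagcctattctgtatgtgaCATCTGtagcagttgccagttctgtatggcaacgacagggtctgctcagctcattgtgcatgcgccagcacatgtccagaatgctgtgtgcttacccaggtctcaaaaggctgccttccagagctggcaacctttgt
peak 51 (chr1:41084464-41084763, strand +): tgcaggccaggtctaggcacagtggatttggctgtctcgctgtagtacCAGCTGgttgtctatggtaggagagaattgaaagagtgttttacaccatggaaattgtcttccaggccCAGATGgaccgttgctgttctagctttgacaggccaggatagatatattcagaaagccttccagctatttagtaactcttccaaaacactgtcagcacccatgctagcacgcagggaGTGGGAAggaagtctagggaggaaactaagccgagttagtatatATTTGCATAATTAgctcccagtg
peak 3427 (chr2:74288684-74288983, strand +): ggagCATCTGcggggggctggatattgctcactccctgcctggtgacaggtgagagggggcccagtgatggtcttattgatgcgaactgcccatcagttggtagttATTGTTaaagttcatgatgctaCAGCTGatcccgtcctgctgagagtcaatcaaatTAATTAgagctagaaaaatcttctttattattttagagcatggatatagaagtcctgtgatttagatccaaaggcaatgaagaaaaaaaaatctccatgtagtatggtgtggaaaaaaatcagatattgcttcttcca
peak 3762 (chr3:5754920-5755219, strand +): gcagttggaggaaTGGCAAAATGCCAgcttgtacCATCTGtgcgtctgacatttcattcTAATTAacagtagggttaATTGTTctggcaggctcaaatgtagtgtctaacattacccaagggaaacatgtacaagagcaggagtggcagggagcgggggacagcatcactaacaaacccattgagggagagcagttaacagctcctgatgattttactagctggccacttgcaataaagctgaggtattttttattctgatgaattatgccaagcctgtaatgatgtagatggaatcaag
peak 4305 (chr4:71594367-71594666, strand +): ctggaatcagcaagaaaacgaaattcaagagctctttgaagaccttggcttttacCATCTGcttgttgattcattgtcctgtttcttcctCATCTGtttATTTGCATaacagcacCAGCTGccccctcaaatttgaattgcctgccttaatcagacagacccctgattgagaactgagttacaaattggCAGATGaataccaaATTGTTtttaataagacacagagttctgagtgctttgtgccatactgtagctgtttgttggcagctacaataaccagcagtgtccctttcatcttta

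Peak 6234, beside the adhesion molecule gene Ntm, held 5 different motifs in its middle 300 bp, as did peak 51. In peak 51 the octamer and the homeodomain site shared 1 base, and such overlapping matches were counted under both names. Peaks 3427, 3762 and 4305 are the widest of 34 far peaks that held 4 each, and peak 3762 was the only one of these 5 with an Nfi dimer. The middle of a far peak held a mean of 1.43 ± 0.985 (SD, n = 1273) of the 11 motifs searched for factors at work in this tissue, and 16.7% held none. Nearer intergenic peaks were close to this, with a mean of 1.37 and 18.9% with none. Windows beside the far peaks, described below, had a mean of 0.812 and 41.5% with none. Among the peaks under these cloned elements, 1608 (elt6) and 1437 (elt10) held 1 motif and 6525 (elt1) held 2. Their peaks were 1790, 848 and 957 bp wide, in the same order.

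Far peaks had a median width of 1025 bp, with quartiles of 865 and 1279 bp. Widths ran from 382 bp for peak 2480, downstream of the ephrin receptor gene Epha3, to 3631 bp for peak 1737, between the gene models Gm17618 and Gm4066. The second widest, peak 751, covered 3508 bp at a distance of 293.37 kb from the start of Bcl11a, a zinc finger gene of cortical projection neurons, and peak 1518 covered 3108 bp in the interval that ends at the HMG-box gene Sox4. The middle of the widest of these that held a motif and the middle of the narrowest peak read as follows.
peak 751 (chr11:24271440-24271639, strand +): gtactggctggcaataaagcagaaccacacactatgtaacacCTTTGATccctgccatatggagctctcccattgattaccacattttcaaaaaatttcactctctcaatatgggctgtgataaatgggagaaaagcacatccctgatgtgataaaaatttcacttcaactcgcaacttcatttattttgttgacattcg
peak 2480 (chr16:63528716-63528915, strand +): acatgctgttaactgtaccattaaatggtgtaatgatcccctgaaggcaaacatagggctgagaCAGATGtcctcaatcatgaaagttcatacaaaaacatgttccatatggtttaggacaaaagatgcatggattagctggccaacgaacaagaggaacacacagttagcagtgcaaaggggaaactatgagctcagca
By width, 51.5% of far peaks were at or above the median of all peaks (all peaks, 50.1%). The share was 49.2% of nearer intergenic peaks, a difference of 2.28 percentage points (95% interval -1.31 to 5.87; two-sided Fisher's exact test, adjusted p = 0.320 over 6 comparisons), and 49.0% of gene desert peaks (adjusted p = 0.397). Intervals here and below cover counting error only. A difference in width between the classes was thus not detected.

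Distances to the nearest protein-coding start site had a median of 197 kb and quartiles of 144 and 273 kb. There were 647 far peaks between 100 and 200 kb, 395 between 200 and 300 kb and 231 between 300 and 400 kb. Upstream and downstream positions were about equally common, with 626 far peaks (49.2%, 95% interval 46.4 to 52.0%) upstream of the gene. Just inside the lower limit were peak 294 at 100.03 kb from Rgs2 and peak 4919 at 100.29 kb from C130026L21Rik, and just outside it were peaks 5087 at 99.901 kb and 3923 at 99.943 kb. At the upper limit, peaks 4781 at 398.38 kb and 3311 at 398.54 kb were in, and peaks 2059 at 400.14 kb and 3852 at 400.41 kb were out.

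The space that meets the rule amounted to 470 Mb, or 18.4% of the assembled sequence. Far peaks therefore occurred at 2.71 per Mb (95% interval 2.56 to 2.86), against 2.46 per Mb for nearer intergenic peaks, 1.79 per Mb in gene deserts and 2.87 per Mb inside genes, each counted over its own space. Far density exceeded nearer density on 13 of 20 chromosomes (exact two-sided sign test, p = 0.263), so a difference between these classes was not shown. Exons and a zone of 2.5 kb around start sites had been cleared of peaks before deposit, a step that bears mainly on the nearer and genic spaces and whose part in these densities was not tested.

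Far peaks lay in 614 intervals between protein-coding genes, of which 342 held a single far peak and 51 held 5 or more. Those 51 intervals contained 363 far peaks, or 28.5%. Within 50 kb, midpoint to midpoint, the far peaks formed 927 groups, 712 of them single peaks, and the largest group had 8 members over 171 kb next to Cmpk2. Another peak of any class lay under 50 kb away for 48.5% of far peaks (all peaks, 50.1%), against 49.5% of nearer peaks (adjusted p = 0.634, Fisher's exact test) and 36.9% of gene desert peaks, a difference of 11.7 points (95% interval 6.71 to 16.5; adjusted p = 9.17e-06). A larger share of far peaks than of desert peaks thus had a close neighbour, and no difference from nearer peaks was detected. Neighbours count each other, so peaks are not independent in this test, and its p-values and intervals do not allow for that. Far space also held more peaks per Mb than gene deserts (2.71 against 1.79), and the part of density was not tested.

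The fullest interval, from C130026L21Rik to the lens crystallin gene Cryba4 on chromosome 5, held 18 far peaks in 659 kb. Mn1, a transcriptional co-regulator gene, is the closest gene with a full name on the C130026L21Rik side. These 18 peaks had middles of 46.3 to 64.0% GC and widths of 705 to 2259 bp, and 10 of them carried the proneural E-box, which 45.7% of all p300 peaks had. The interval also held 9 nearer peaks and 4 inside non-coding genes. Second came the stretch from Cmpk2, a mitochondrial nucleotide kinase gene, to Gm9866 on chromosome 12, with 12 far peaks in 661 kb. Beyond Gm9866 lies Sox11, an HMG-box gene of newborn neurons, and the interval on its other side, from Sox11 to Dcdc2c, held another 9 far peaks in 1095 kb. On chromosome 13, 11 far peaks and no other peak lay between Rnf144b, a ubiquitin ligase gene, and 4931429P17Rik, past which lies Id4, an inhibitor of bHLH factors. The cloned element elt6 was taken from one of these peaks.

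Intervals with 10 far peaks were Zfp608 to Gramd3 on chromosome 18, where 16 gene desert peaks lay as well, and 2610203C20Rik to the sorting receptor gene Sorl1 on chromosome 9, where the 10 fell within 253 kb. Those with 9, apart from Sox11 to Dcdc2c, were Camk1g to the semaphorin receptor gene Plxna2, the Groucho co-repressor gene Tle3 to the ribosomal gene Rplp1, Thap1 to Zfp703, the chromatin remodeller gene Chd7 to Clvs1, and the prokineticin gene Prok2 to the Polycomb gene Rybp. With 6 intervals tied at 9, there are 11 intervals that hold the leading 10 places.

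**Figure D1:**
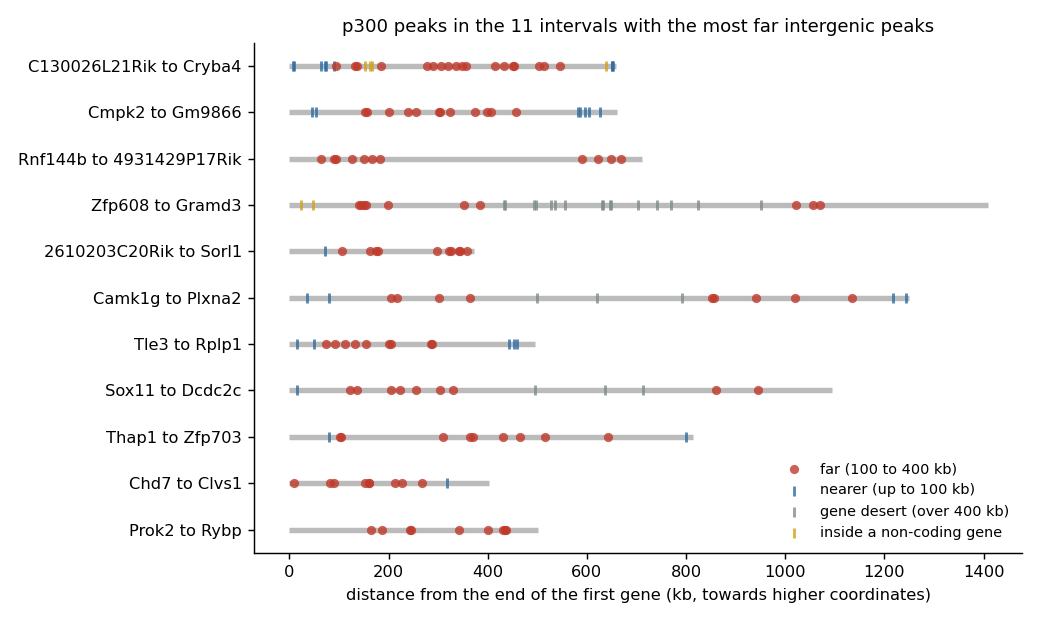
Each grey bar is an interval between 2 protein-coding genes, drawn in kb from the end of the lower-coordinate gene, and each mark is a p300 peak, red circles being far intergenic peaks and ticks the other classes. The C130026L21Rik to Cryba4 bar holds 18 red circles, and in Zfp608 to Gramd3 the 10 red circles flank 16 gene desert peaks.

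For a minority of far peaks the nearest gene was on a list of transcription factors and co-factors of the cortex, which holds genes with well-known roles there and others, such as Zfp608 and Tle3, whose roles are less clear. Of 88 annotated genes of this list, 28 were nearest to at least 1 far peak, and together they took 85 far peaks (6.68%). That is 6.78 per Mb (95% interval 5.42 to 8.39) of the far space nearest to those genes, against 2.71 per Mb for all protein-coding genes. Among them, Zfp608 was nearest to 12 far peaks at 144 to 398 kb, Sox11 to 7 at 123 to 331 kb, all upstream, and Tle3 to 7 at 120 to 250 kb, all downstream. Tox3, another HMG-box gene, was nearest to 7 at 106 to 278 kb, and Etv1, an ETS factor gene of layer 5 neurons, to 6 at 149 to 294 kb, all downstream. The Groucho genes Tle1 and Tle4 were nearest to 4 each. Where the list was matched to either gene bounding the interval in place of the nearest one, 171 far peaks were counted (13.4%). The bounding-gene count was not made for other classes. By nearest gene, the list took 3.07% of nearer intergenic peaks and 7.71% of gene desert peaks, against 6.68% of far peaks.

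The 7 far peaks upstream of Sox11 lay 123, 137, 205, 223, 255, 304 and 331 kb from its start, and their middles had between 41.7 and 55.7% GC. Proneural E-boxes were found in the middle of 4 of these 7, near the 45.7% of all peaks, with 2 sites at 137 kb and 2 at 304 kb. The 7 beyond Tle3 were spaced more closely, at 120, 137, 157, 177, 200, 245 and 250 kb, and were 907, 2155, 1241, 1046, 1359, 1076 and 1057 bp wide. Of these 7, the peaks at 120 and 157 kb had the proneural E-box, and those at 137 and 177 kb the homeodomain site.

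Axon guidance and adhesion genes, a list of 75, were nearest to 47 far peaks (3.69%), or 4.15 per Mb (95% interval 3.05 to 5.51). The share was 1.23% of nearer intergenic peaks and 9.36% of gene desert peaks. Plxna2 had 5 far peaks upstream, at 115 to 397 kb. Cdh6, a cadherin gene, the ephrin receptor genes Epha3 and Epha5, Ntm and the Slit receptor gene Robo1 had 4 each. The 4 upstream of Robo1 lay at 109, 152, 162 and 260 kb and the 4 upstream of Epha5 at 274 to 395 kb.

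Transcription factors of the subpallium and other brain regions were nearest to 12 far peaks (3.62 per Mb, 95% interval 1.87 to 6.32) and signalling ligands and receptors to 11 (3.09 per Mb, 1.54 to 5.52), both with intervals that include the density for all genes. As contrasts, genes of liver, muscle, blood or skin were nearest to 1 far peak (0.808 per Mb, 0.0205 to 4.50), but ribosomal protein genes were nearest to 9 (17.4 per Mb, 7.97 to 33.1). The ribosomal count rests on 3 genes and 0.516 Mb, with 4 of the 9 beside Rps24 at 160 to 381 kb. A high density by nearest gene was thus not particular to neural lists. The lists were drawn up with results of these data known, so the densities are a description.

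**Figure D2:**
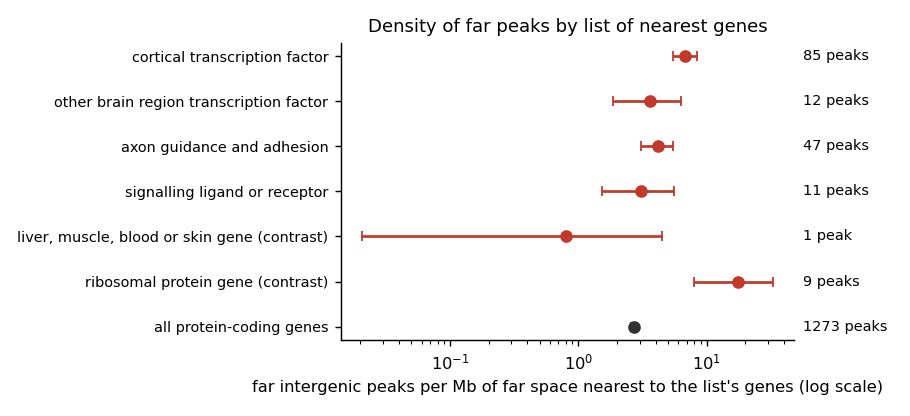
Points give far intergenic peaks per Mb of far space whose nearest protein-coding start site belongs to a gene of each list, on a log scale, with exact Poisson 95% intervals, and the number of peaks at the right. The cortical transcription factor list stands at 6.78 and the ribosomal contrast list at 17.4, both above the 2.71 of all protein-coding genes.

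The rule keeps far peaks away from protein-coding start sites and not from those of other genes. The nearest start site of any gene type belonged to a gene not annotated as protein-coding for 823 far peaks (64.7%). The same held for 64.8% of the windows of 300 bp of far space, so the shares were alike. Of these far peaks, 184 were nearest to a pseudogene, 161 to an snRNA gene, 91 to a microRNA gene and 57 to a lincRNA gene. A microRNA gene with a Mir name was the nearest gene, within 50 kb, for far peaks at 4 loci, among them Mir9-2. It encodes miR-9, an abundant microRNA of the developing brain that acts on neural progenitors, and it was singled out after its values were seen. The mature miR-9 strands, from RefSeq (GRCm38.p6), read as follows, with the seed, bases 2 to 8, in capitals.
mmu-miR-9-5p: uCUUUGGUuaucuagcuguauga
mmu-miR-9-3p: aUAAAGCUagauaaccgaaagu
Mir9-2 lies on the plus strand of chromosome 13 at 83878411 to 83878497, in the 555 kb between Mef2c and Tmem161b, and all 7 p300 peaks of that interval were far peaks. They were 10.8, 23.9, 134, 246, 249, 318 and 321 kb on the higher-coordinate side of Mir9-2, and their widths were 2742, 1027, 1879, 1843, 1934, 2173 and 1779 bp. All but the peak at 23.9 kb were thus above the upper quartile of width for far peaks. The peak at 10.8 kb, chr13:83887891-83890632, was wider than 1267 of the 1273 far peaks. By start site it was assigned to Mef2c, an activity-regulated transcription factor gene, at 246 kb.

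The E-boxes, the homeodomain site, the Nfi dimer and the octamer were more frequent at the centre of the far peaks than beside it. The study had reported Neurod/Neurog, Lhx/Lmx, Nfi and Rfx motifs as enriched in the full peak list, which includes the far peaks. For motifs of these families the tests below are therefore a description and not independent evidence. The study matched motif matrices in its peaks and in control regions of like length and GC, and its Rfx motif was a dimer. Fixed words, and for Rfx a half-site, were searched here in windows of 300 bp, so the measures are not alike. Each far peak's middle 300 bp were set against a window of equal size centred 3 kb away on the lower-coordinate side, which was possible for 1246 far peaks. The proneural E-box occurred in 45.1% of the middles and 23.4% of the flanks, a ratio of 1.92 (exact McNemar test, adjusted p = 3.90e-28 over 15 motifs). Of the discordant pairs, 432 had it in the middle only and 162 in the flank only. The palindromic E-box was in 28.1 and 13.0% (adjusted exact p = 3.23e-20), and the homeodomain site in 26.1 and 10.6% (adjusted p = 1.63e-21). Largest in ratio was the Nfi dimer, in 3.21 and 0.562% (5.71-fold, adjusted exact p = 4.02e-06), and the octamer was in 5.86 and 2.65% (adjusted p = 0.000279). At least 1 of these 5 motifs was present in 74.6% of the middles and 42.0% of the flanks.

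Across all 1564015 windows of 300 bp of far space the proneural E-box was present in 21.8%, the palindromic E-box in 9.19%, the homeodomain site in 11.6%, the Nfi dimer in 0.331% and the octamer in 3.09%. The shares in the middles of all p300 peaks were 45.7, 31.0, 23.6, 3.44 and 5.23% in the same order. In bins of 100 bp, the proneural E-box reached 301 sites beside the midpoint, while beyond 2 kb the 20 bins held 85 to 123 sites. The palindromic E-box reached 177 sites against 39 to 66, and the homeodomain site 161 against 41 to 81.

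**Figure D3:**
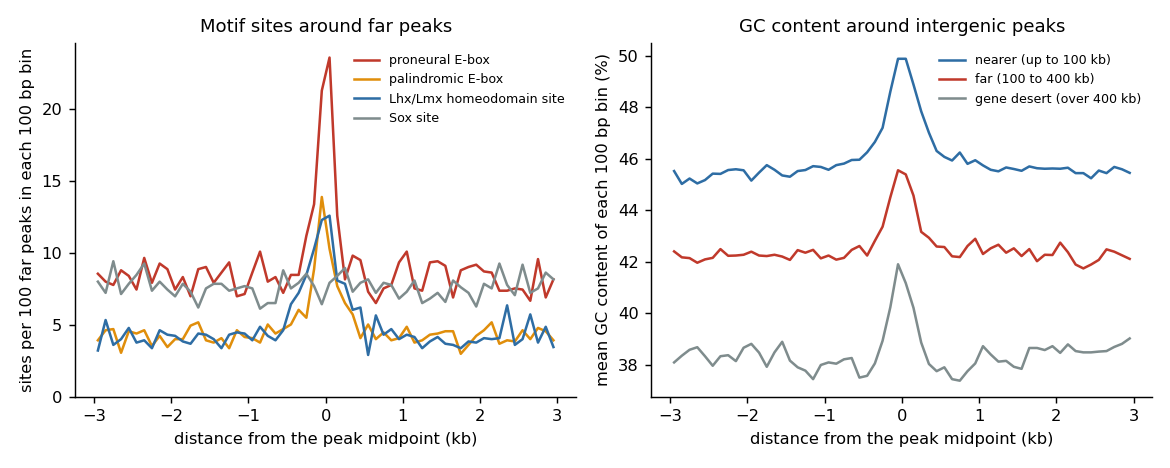
Left, sites of 4 motifs per 100 far peaks in bins of 100 bp, by distance from the peak midpoint in kb; right, mean GC content of the same bins around far, nearer and gene desert peaks. Both E-boxes and the homeodomain site rise at the midpoint and the Sox site does not, and the GC of far peaks runs between that of the other classes.

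For the other motifs of factors known in this tissue, a difference between middle and flank was not shown. The Sox site AACAAT was in 20.4% of middles and 19.7% of flanks (adjusted exact p = 0.842; all peaks, 17.1%). In the pairs of like GC described below, the Sox shares were 25.2 and 15.2% (adjusted exact p = 0.0513). The Tcf/Lef site CTTTGAT of Wnt signalling was in 4.90% of both (all peaks, 4.56%), and in 4.90 and 7.06% with the flank 5 kb away (adjusted exact p = 0.0470). The T-box site AGGTGTGA, bound by factors such as Tbr1 and Eomes, was in 1.69 and 0.722% (adjusted exact p = 0.0713; all peaks, 1.93%), and the Rbpj site of Notch signalling in 6.82 and 4.82% (adjusted p = 0.0713; all peaks, 6.52%). The Rfx half-site CCATGGNAAC was in 1.36 and 0.803% (adjusted exact p = 0.338; all peaks, 1.69%), and passed the threshold with windows of 500 bp (adjusted p = 0.0357), the other flank (adjusted p = 0.0362) or the flank 5 kb away (adjusted p = 0.00846). Its 4 bins of 100 bp around the midpoint held 10, 9, 5 and 6 sites, against 0 to 5 in the bins beyond 2 kb. An alternative Nfi arrangement, TGCCANNTGGCA, was in 0.321% of middles and 0% of flanks (4 and 0 windows; adjusted exact p = 0.188; all peaks, 0.332%).

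Of the contrast motifs, the AP-1 site TGANTCA was in 9.47 and 9.15% (adjusted exact p = 0.900; all peaks, 9.35%) and the CRE TGACGTCA in 0.161 and 0.321% (adjusted p = 0.842; all peaks, 0.241%). The CACGTG E-box was in 4.65 and 2.89% (adjusted exact p = 0.0458; all peaks, 4.51%) and the CTCF core CCANNAGNNGGC in 2.65 and 1.28% (adjusted p = 0.0458; all peaks, 4.09%), both just past the threshold. With the flank on the other side the CACGTG E-box missed it (adjusted exact p = 0.440), as did the CTCF core with windows of 200 bp (adjusted p = 0.185) or 500 bp (adjusted p = 0.199). The CACGTG E-box passed with windows of 200 bp (adjusted exact p = 0.00948), windows of 500 bp (adjusted p = 0.00906) and the flank 5 kb away (adjusted p = 0.00846). The CTCF core passed with the other flank (adjusted exact p = 0.00772) and the flank 5 kb away (adjusted p = 0.00615). In the pairs of like GC described below, the CACGTG E-box missed the threshold.

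**Figure D4:**
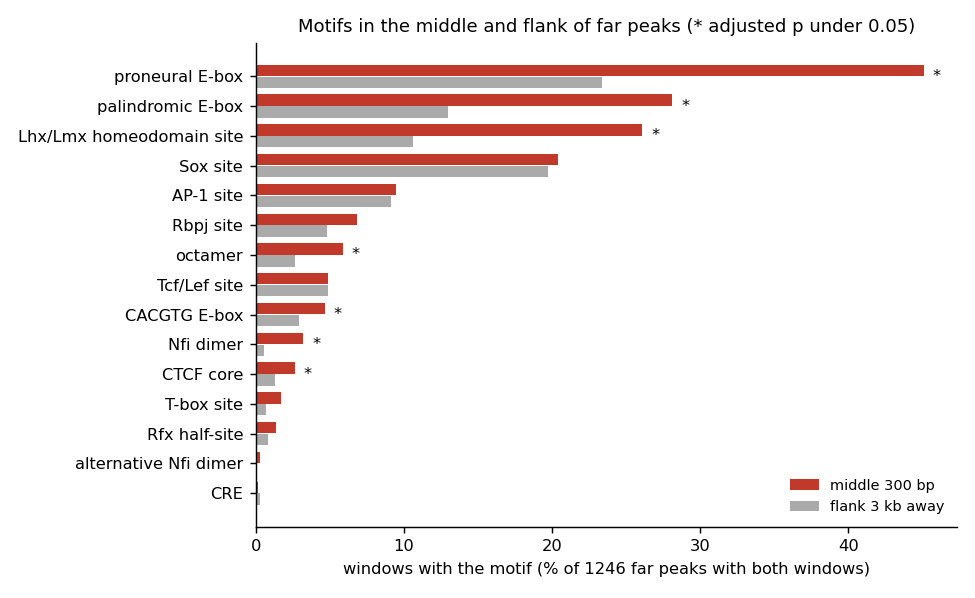
Bars give the share of 1246 far peaks with each motif in the middle 300 bp (red) and in the flank 3 kb away (grey), in percent, and an asterisk marks an adjusted p under 0.05 by the exact McNemar test. The proneural E-box is at 45.1% against 23.4%, and the Sox, AP-1 and Tcf/Lef bars are nearly equal.

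The bases before the proneural E-box differed between middles and flanks. Read as CATCTG, 729 sites in the middles and 322 in the flanks could be compared. GCCATCTG made up 17.6% of the sites in the middles (128) and 4.04% in the flanks (13), so it was 9.85 times as frequent in counts. ACCATCTG was next, with 96 and 21 sites, and CCCATCTG had 85 and 24. At the other end, ATCATCTG had 9 sites in the middles and 17 in the flanks, TTCATCTG had 19 and 24, and CTCATCTG had 22 and 27. These counts are a description, chosen after the E-box result was seen. They were not made for other p300 peaks or for pairs of like GC. In 125 far peaks the middle held 2 proneural E-boxes and in 25 it held 3 or more. Proneural E-box and homeodomain site occurred together in 134 far peaks (10.5%), the E-box alone in 437, the homeodomain site alone in 195 and neither in 507. Counted singly, the E-box was in 44.9% and the homeodomain site in 25.8% of far peaks, against 45.7 and 23.6% of all p300 peaks. The counts of several E-boxes and of both sites together were not made for other peaks. Whether the 2 sites go together was not tested.

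A search without chosen motifs gave related words. Of 2080 words of 6 letters, reverse complements joined, 482 were more frequent in the middles than in the flanks (23.2%) and 329 less frequent (15.8%), by the exact McNemar test at an adjusted p under 0.05. CTGCCA led, in 42.1% of the middles and 17.7% of the flanks (adjusted exact p = 2.64e-38), followed by TGCCAA in 34.0 and 14.1% (adjusted p = 1.96e-27). Both hold the TGCCA of Nfi half-sites, as does the fifth word, CTGGCA, in 35.6 and 17.7%. CATCTG came directly after TGCCAA, and GCTAAT was in 26.5 and 9.87% (2.68-fold) and AATTAG in 32.6 and 15.2%. The next in order were GCTGCC with 30.2 and 14.0%, the homeodomain site TAATTA, and the palindromic E-box CAGCTG. The rest of the leading 15 were CAATTA with a ratio of 2.03, TAATGA with 1.92, GCAGCA with 1.93, AGCAGC with 1.79, CAGCAG with 1.66 and TGCTAA with 1.82. The words with the strongest depletion were AGATAT, in 9.71 and 21.0%, and ATCTAC, in 4.49 and 12.1%.

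GC content moved with this comparison. The middles had 45.3% GC on average and the flanks 42.3%, a mean difference of 2.97 ± 7.93 points (SD, n = 1246), and the middle was the higher in 788 pairs (63.2%). Of 36 words made only of G and C, 31 were more frequent in the middles and 0 less frequent, while of 192 words with a single G or C 15 were more and 72 less frequent. In the 210 pairs within 2 points of GC, 12 words were more and 1 less frequent. TAATGA then led, with 37.6 and 12.4% (adjusted exact p = 1.23e-06), before TAATTA with 27.6 and 5.71%, TGCCAA with 34.3 and 9.52%, and AATTAA. The proneural E-box kept its difference in these pairs (41.0 and 25.2%, adjusted exact p = 0.00353), and so did the octamer (9.52 and 1.43%, adjusted p = 0.00353). The palindromic E-box did not pass (26.7 and 17.1%, adjusted exact p = 0.0513), and it did in the 538 pairs within 5 points (27.7 and 15.6%, adjusted p = 6.67e-06), a limit added after the data were seen. The motif tests in the closer pairs were added then as well. The CTCF core, a contrast motif, passed in the closer pairs (4.29 and 0%, adjusted exact p = 0.0146) and missed the threshold in the wider set (2.97 and 0.929%, adjusted p = 0.0798). The Nfi dimer was in 0.952% of both windows in the closer pairs and in 2.04 and 0.743% in the wider set (adjusted exact p = 0.296), so its difference was not shown at matched GC.

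GC content set far peaks apart from the other intergenic classes. The middles had 45.3 ± 6.95% GC (SD over 1273 peaks) in far peaks, 49.6% in nearer peaks and 41.2% in gene desert peaks. At or above the median of all peaks were 42.5% of far peaks (all peaks, 50.5%) and 64.1% of nearer peaks, a difference of -21.6 points (95% interval -25.1 to -18.1; Fisher's exact test, adjusted p = 9.28e-32). The share among far peaks was 24.5 points above that of desert peaks (95% interval 20.1 to 28.6; Fisher's exact test, adjusted p = 1.26e-24). The assembled space of each class followed the same order, at 40.3, 42.5 and 37.9% GC. Among far peaks the mean was 46.1% at 100 to 200 kb, 44.9% at 200 to 300 kb and 43.6% at 300 to 400 kb, which was not tested. The 1273 far peaks formed 927 groups within 50 kb. The tests of GC, like those of width, words and motifs, take each peak as independent. The p-values and intervals of these tests do not allow for grouping.

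The words that differed between far and nearer middles were ordered by GC. By Fisher's exact test 320 of the 2080 words were more frequent in far peaks (15.4%) and 297 less frequent (14.3%). Every called word with at most 2 G or C letters was more frequent in far peaks (305 words) and every called word with at least 5 was less frequent (176 words). The leading words were AAAATA, in 30.8% of far and 20.1% of nearer peaks (adjusted exact p = 3.13e-08), AAATAT, in 24.6 and 15.2%, and CGCCCC, in 4.87 and 11.3% (adjusted p = 1.11e-07). They were followed by CCCGGC with 4.87 and 11.2%, ATTTAA with 27.8 and 18.2%, AATTTA with 23.2 and 14.3%, AAAAAT with 33.4 and 23.1%, AAAACA with 38.0 and 27.4%, TGAAAA with 33.1 and 23.0% and AATTAA with 36.9 and 26.5%. Of the chosen motifs, the homeodomain site was more frequent in far peaks (25.8 and 19.1%, adjusted exact p = 8.47e-05), as was the Sox site (20.3 and 14.4%, adjusted p = 0.000102). The CTCF core was less frequent (2.67 and 6.64%, adjusted exact p = 4.94e-06), as was the palindromic E-box (28.0 and 32.2%, adjusted p = 0.0454). For the proneural E-box the difference was -0.767 points (95% interval -4.33 to 2.81; adjusted exact p = 0.857).

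These differences were not shown among peaks of like GC, a comparison added after the data were seen. With middles of 40 to 50% GC in both sets, 667 far and 768 nearer peaks remained, with means of 44.9 and 45.5% GC. A single word then passed by Fisher's exact test, CCCTAG, in 4.05% of far and 10.4% of nearer peaks (adjusted p = 0.00893), and 123 words had an unadjusted p under 0.05. None of the 15 motifs passed, and 3 had an unadjusted p under 0.05. The homeodomain site was in 25.2 and 23.0% (adjusted exact p = 0.703), the Sox site in 20.1 and 16.3% (adjusted p = 0.238) and the CTCF core in 2.70 and 5.21% (adjusted p = 0.108). The band also holds fewer peaks than the full sets.

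**Figure D5:**
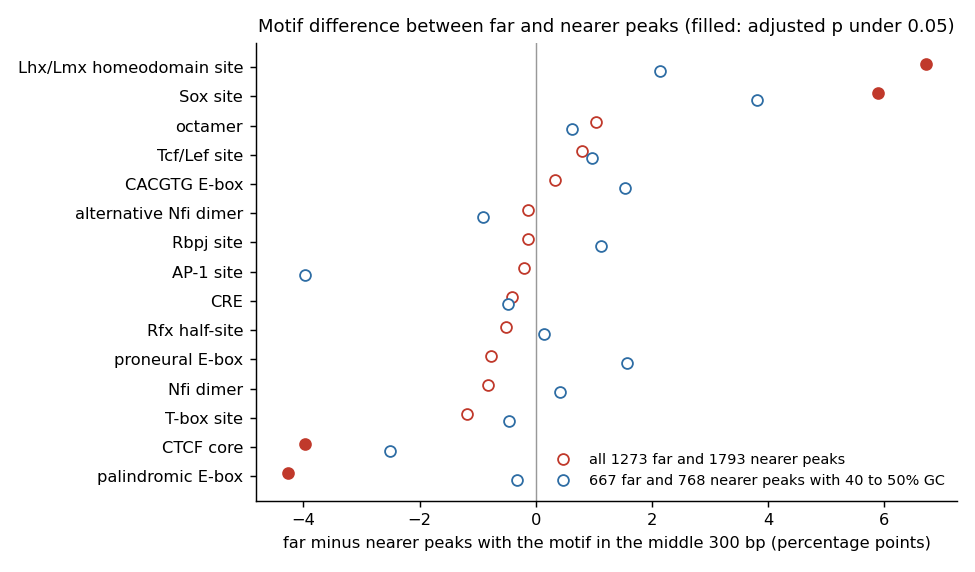
Points give, for each motif, the share of far peaks minus the share of nearer intergenic peaks with the motif in the middle 300 bp, in percentage points, for all peaks (red) and for peaks of 40 to 50% GC (blue), filled where the adjusted p is under 0.05 by Fisher's exact test. The homeodomain site falls from 6.71 points to 2.14, and no blue point is filled.

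Few far peaks resembled each other over longer stretches. By blastn, 88 far peaks (6.91%) shared sequence with another far peak, in 19 groups, the largest with 32, 10 and 9 members. In these 3 groups the shared stretch reached the middle 300 bp of the peak in 1 of 51 members, so it lay towards the edges, at a median of 406 bp from the midpoint in the largest group. The closest pair of that group, peaks 1950 and 2077 on chromosome 14, agreed over 167 aligned positions at 89.2% identity in opposite orientation, and is shown with the plus strand for peak 1950 and the minus strand for peak 2077 because these stretches lie outside the motif-bearing middles.
peak 1950 (chr14:61147669-61147831, strand +): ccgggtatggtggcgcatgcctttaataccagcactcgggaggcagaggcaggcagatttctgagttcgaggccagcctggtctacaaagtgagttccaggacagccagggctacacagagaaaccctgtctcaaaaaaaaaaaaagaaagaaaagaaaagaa
peak 2077 (chr14:107235033-107235199, strand -): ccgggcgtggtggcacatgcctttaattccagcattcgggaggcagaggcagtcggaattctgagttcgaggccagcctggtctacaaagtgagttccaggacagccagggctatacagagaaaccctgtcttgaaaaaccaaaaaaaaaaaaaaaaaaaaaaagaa
In the second group the closest pair, peaks 1676 and 1813, aligned over 111 positions at 85.6% identity. In the third the closest pair, peaks 4492 and 6027, aligned over 60 positions at 93.3%, and both stretches were mostly TG repeated. The shared stretches were not set against annotated repeats, so whether they are copies of common repeats was not tested. A match to any other p300 peak was found for 17.7% of far peaks, 28.8% of nearer, 16.3% of gene desert and 22.6% of genic peaks.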

How the data were processed

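p300-bound chromatin and input DNA of E14.5 dorsal cerebral wall were sequenced by the authors. Per the study's methods, reads of 36 bp were aligned with ELAND to mm9 with at most 2 mismatches, peaks were called over the input with MACS, version 1.4 by the submitters' processing notes, with a shift of 100 bp, and peaks at exons, within 2.5 kb of a start site or of suspected non-unique mapping were removed. The deposited file gives peak positions on mm9 and no other value, so the depth and score of a peak are not known here and no column of counts exists. Data of the input library were not analysed here.

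Positions were set against the NCBIM37 sequence (mm9) and GENCODE vM1, with the protein-coding, pseudogene and non-coding gene bodies of 20 chromosomes. Density used assembled bases. Words of 6 letters and 15 motifs were searched on both strands in the middle 300 bp. Middle and flank were compared by the exact McNemar test, classes by two-sided Fisher's exact test, each with Benjamini-Hochberg adjustment and a threshold of 0.05. Shares carry Clopper-Pearson and densities exact Poisson 95% intervals, and differences Newcombe intervals. Shared sequence was found with blastn 2.17.0 (E-value limit 1e-05, low-complexity filter on). Python 3.11.15, numpy 2.4.6, scipy 1.17.1 and matplotlib 3.10.9 were used. The word tests were tested on simulated windows of equal GC in both sets and without grouping. Differences in GC and grouped peaks were thus not covered. Cloned elements were located by their primer sequences.

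The members, lists, motifs and tests were chosen with earlier results of these data known. Named were the genes bounding the 10 intervals with the most far peaks (and 1 tied interval), list genes nearest to 4 or more far peaks, far peaks under cloned elements, the widest 3 and the narrowest, the leading words, the 3 largest groups that share sequence, the far peaks beside the distance limits and the 5 with the most motifs (the widest first among ties). Alternatives changed start sites, gene bodies, windows, flanks, joining of peaks under 5 kb apart and the E-value limit. Words in pairs within 2 points of GC were also planned. The other GC-restricted comparisons, with all those of motifs, and leaving out the 10 fullest intervals were added after the data were seen. An item that this rule covers is not reported here.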

Additional observations from a re-analysis of the deposited data

How the results depend on the processing

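No paired analysis was possible because there is 1 library of each kind and no replicate: this holds for samples, whereas middle and flank of a peak were compared as pairs. Of 198 alternative values, 36 of 48 for the main comparisons kept their direction, their side of the threshold or their size. The number of far peaks stayed between 1176 (peaks joined) and 1321 (model-named genes not used), and the GC difference from nearer peaks between -27.4 and -22.3 points. Joining peaks moved the median width to 1044 bp. Matched GC moved the middle-against-flank words from 811 to 13 (within 2 points) and 176 (within 5 points), and the motifs from 7 to 4 in both (the proneural E-box, the homeodomain site and the octamer in each, with the CTCF core within 2 points and the palindromic E-box within 5); these sets also hold fewer pairs. Against nearer peaks, 617 words became 380 with windows of 200 bp and 1 with 40 to 50% GC, and 4 motifs became 0. Words called without the 10 fullest intervals numbered 765, with 450 of the 482 more frequent ones shared. With 1 peak kept per group within 50 kb, 619 words were called between middle and flank and 422 against nearer peaks. Those sets also hold fewer peaks. Counting either bounding gene gave 171 far peaks for the cortical list, and an E-value limit of 1e-10 gave 55 peaks with shared sequence. The cause was not tested beyond these settings.

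Differences that missed the threshold changed sign under some settings. Close neighbours against nearer peaks were at -0.923 points and became 0.217 at 10 kb and 1.96 at 100 kb. For middle minus flank, the Sox site became -0.885 and the CRE 0.0805 with the other flank; with the flank 5 kb away the T-box site became -0.0803, the Rbpj site -0.482 and the AP-1 site -0.642, and the AP-1 site -5.24 in pairs within 2 points of GC. For far minus nearer, over whole peaks the proneural E-box became 0.857, the alternative Nfi dimer 0.0503, the AP-1 site 1.84 and the CACGTG E-box -2.25, and the Tcf/Lef site -0.0266 with windows of 200 bp. At 40 to 50% GC the proneural E-box became 1.57, the Nfi dimer 0.414, the Rfx half-site 0.146 and the Rbpj site 1.13. None of these values passed the test. A single library and positions without counts limit all results: how far the list would differ in another embryo pool is unknown.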

Other observations

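By chromosome, far peaks were densest on chromosome 9, with 86 in 21.9 Mb of far space (3.94 per Mb), and on chromosomes 5 and 4, with 3.89 and 3.87 per Mb. The X chromosome had 16 far peaks in 38.6 Mb, or 0.415 per Mb, and its nearer intergenic peaks were also sparse, at 0.334 per Mb. On chromosome 19 far density was 2.93 and nearer density 1.55 per Mb, and on chromosome 15 the order was the other way, at 1.98 and 3.06 per Mb.

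Another microRNA gene near a far peak was Mir193b, with peak 2352 of chromosome 16 at 12.2 kb. The far space around Gm6133 on chromosome 18 held a group of 7 far peaks within 109 kb, and groups of 5 lay within 59.0 kb near Mpdz and within 93.1 kb near Matn1, both on chromosome 4. By distance, the CTCF core was in 3.40% of far peaks at 100 to 200 kb (95% interval 2.14 to 5.10%), 2.28% at 200 to 300 kb and 1.30% at 300 to 400 kb (0.269 to 3.75%), with intervals that overlap.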
